A study of Drosophila melanogaster with 8 samples.

Results

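Larval brain RNA of Canton S flies and of STIM knockout flies was sequenced in 4 libraries per genotype, and in both genotypes replicates 1 and 2 differed from replicates 3 and 4 in the kinds of transcript that took the counts. The 4 libraries numbered 1 and 2 (2 CS, 2 STIM KO) were therefore set against the 4 libraries numbered 3 and 4 (2 CS, 2 STIM KO), which is all 8 libraries of the series, with genotype as a term. The replicate number in the sample titles was what placed a library in its set, and neither the labels nor the study's methods name a batch, a date or a run for these numbers. STIM KO larvae carry a CRISPR-Cas9 null allele of Stim and were collected 72 to 76 h after egg laying, and CS larvae, the wild type, were collected at 58 to 62 h, so genotype and age differ together and cannot be told apart. Each library was made from a pool of dissected brains with a low-input, oligo-dT primed cDNA kit and a transposon-based library kit, neither of which marks the RNA strand. Nothing in the labels says that same-numbered libraries share a day or a dissection, and p-values measure only the spread between these 8 libraries.

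A read was counted here only if it fitted a single annotated transcript. Reads that fitted several transcripts of a gene were set aside as ambiguous, so the count of a transcript in a gene with many isoforms holds only reads from the part of the sequence that no other isoform shares. Most of the gene classes compared here have well-known properties that bear on such counts. The mitochondrial genome encodes 13 subunits of the respiratory chain in short genes with almost no untranslated sequence, and cytosolic ribosomal proteins are made from short and very abundant mRNAs. Neurons of Drosophila make many mRNAs, elav among them, with extended 3′ untranslated regions (3′ UTRs), while antisense RNAs overlap a gene on the other strand, so that without strand information the reads of such a pair cannot be told apart.

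The sets differed in depth and in how reads were sorted before any gene was considered. Replicates 1 and 2 held 395680 to 1129439 counted reads, against 1626626 to 2090717 in replicates 3 and 4, although the number of records was 10987379 to 16834262 in replicates 1 and 2, against 15266815 to 18048273 in replicates 3 and 4. Records with no alignment made up 18.9 to 29.5% in replicates 1 and 2, against 6.06 to 7.03% in replicates 3 and 4. Ambiguous records were 9.89 to 18.0% in replicates 1 and 2, against 33.5 to 34.5% in replicates 3 and 4. The sets did not overlap in counted reads, in unaligned records or in ambiguous records, and did overlap in the number of records. The 10 most abundant transcripts took 15.6 to 17.0% of the counted reads in replicates 1 and 2, against 6.16 to 8.49% in replicates 3 and 4. Counting intervals and the floor given by a count of 0 (3 counts, 2.98 to 9.51 counts per 1e6 of the scaled library total, CPM, in replicates 1 and 2 and 1.28 to 1.51 CPM in replicates 3 and 4) cover counting error only, because PCR reads are not independent molecules.

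The labels were checked on the targeted gene and on markers. Of the 4 Stim transcripts, NM_001298380.1 had 0 unique reads in each of the STIM KO libraries, while CS libraries had 2 and 3 (replicates 1 and 2) and 6 and 9 (replicates 3 and 4). For NM_206747.3, STIM KO libraries had 14 and 19 (replicates 1 and 2) and 3 and 2 (replicates 3 and 4), against 4 and 1 and then 6 and 5 for CS, so reads unique to it were not lost in STIM KO. The other 2 Stim transcripts had 0 counts in every library, and with so few counts this gene is a weak check of the labels. The neuronal markers elav, nSyb, Syt1 and brp, summed over the transcripts of each gene, were counted in all 8 libraries. Their sum was 1933 to 3014 CPM in replicates 1 and 2, against 306 to 756 CPM in replicates 3 and 4. This sum was carried by elav and Syt1, whereas nSyb had 19.0, 4.03, 39.8 and 43.3 CPM in replicates 1 and 2 (here and below in the order CS, CS, STIM KO, STIM KO), against 62.9, 39.7, 129 and 93.9 CPM in replicates 3 and 4, and brp overlapped between the sets. Fbp1 of fat body, Hml of hemocytes, Jon99Ciii of gut and Sgs3 of salivary gland had a count of 0 in every library, while apolpp of fat body was counted in 7 libraries, He of hemocytes in 6 and alphaTry of gut in 3. The salivary gland gene ng1 was counted in all 8, with 6.34, 6.05, 247 and 102 CPM in replicates 1 and 2, against 10.3, 35.0, 23.3 and 149 CPM in replicates 3 and 4. The muscle markers Mhc, Act57B and Mlc2 together had 3334, 5780, 841 and 2757 CPM in replicates 1 and 2, against 738, 1079, 540 and 1501 CPM in replicates 3 and 4, and their part in the results was not tested.

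Of 34463 annotated transcripts, 5829 passed the filter on low counts, and 2978 of these differed between the sets at an adjusted p under 0.05 (edgeR's quasi-likelihood test, Benjamini-Hochberg). In replicates 1 and 2, 1372 transcripts were higher (23.5% of those tested) and 1606 were lower (27.6%). Fold changes were large, with 1635 of the 2978 transcripts past a log2 fold change of 2 in either direction. The 4 libraries of each set did not overlap for 1143 transcripts that were higher in replicates 1 and 2 (19.6%) and 1474 that were lower (25.3%). Over all 5829 transcripts the median log2 fold change was -0.22, and class medians below are to be read against it. Without the scaling of libraries by trimmed mean of M-values (library size only), the median over all transcripts was -0.76 and the calls split into 974 higher and 2246 lower. With every library thinned to 395680 counts, 4215 transcripts were tested, of which 1043 were higher and 1136 lower. Of the transcripts named below, ATPsynB, Act57B, CYTB, RpLP0-like, blw, brp NM_001259298.2 and insc, all with an adjusted p of 0.020 or more, each lost the call when single libraries were left out.

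The difference between the sets was estimated within each genotype from separate libraries. Within CS, 1153 transcripts were higher (19.8%) and 1527 lower (26.2%) in replicates 1 and 2 than in replicates 3 and 4. Within STIM KO, 1138 were higher (19.5%) and 960 were lower (16.5%). Both contrasts called 814 transcripts higher (14.0%) and 731 lower (12.5%), and 13 transcripts were called in opposite directions. The 1545 calls shared with the same sign were 57.6% of the CS calls and 73.6% of the STIM KO calls. Of the transcripts called within CS, 93.5% had the same sign within STIM KO, and 94.3% of those called within STIM KO had the same sign within CS, against 79.0% of all transcripts tested. Across the 5829 transcripts, which are not independent and share library depth, the 2 effects had a Pearson r of 0.74 and a Spearman rho of 0.76. The test of the difference between the genotypes' effects called 0% of the transcripts, with 897 at an unadjusted p under 0.05 and a smallest adjusted p of 0.052. Of the other tools, DESeq2 called 168 transcripts and limma voom with quality weights called 19. Single libraries moved these counts, since 7 transcripts were called for the difference between genotypes without STIM KO replicate 1 and 687 without STIM KO replicate 2. The count within CS was 1512, 1610 and 1504 without CS replicate 1, 2 or 4, and the count within STIM KO was 963 and 883 without STIM KO replicate 3 or 4, where the lone library of an arm is assumed to vary like the other groups.

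**Figure D1:**
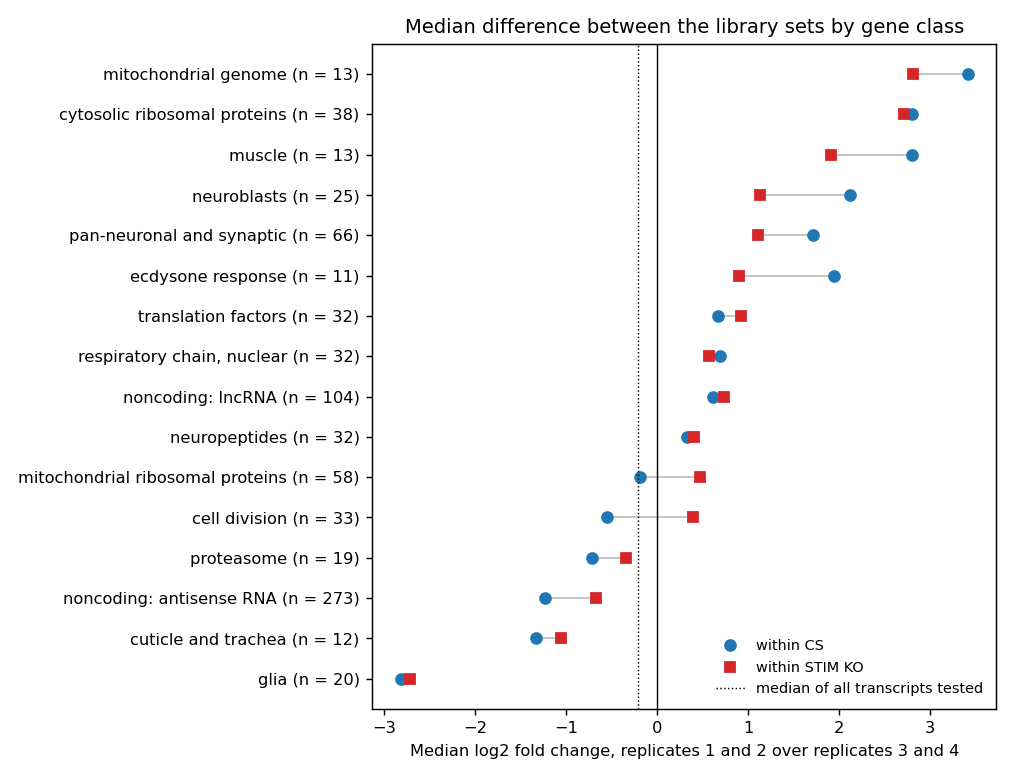
Median log2 fold change (replicates 1 and 2 over replicates 3 and 4) of the tested transcripts of 16 gene classes, on the x axis, within CS (circles) and within STIM KO (squares), with the number of transcripts tested beside each name. The dotted line is the median of all transcripts (-0.22). The mitochondrial genome (3.41 within CS, 2.81 within STIM KO) and cytosolic ribosomal proteins (2.80 and 2.70) lie at the high end and the glial list (-2.82 and -2.71) at the low end in both genotypes, and cell division (-0.56 and 0.39) and mitochondrial ribosomal proteins (-0.19 and 0.47) have medians of opposite sign.

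All 13 mRNAs of the mitochondrial genome were higher in replicates 1 and 2, 12 of them without overlap between the sets, and 11 were called within each genotype. Their median log2 fold change was 3.05. The class took 8.76, 8.39, 3.61 and 8.39% of the counted reads in CS replicates 1 and 2 and STIM KO replicates 1 and 2, against 0.996, 1.37, 1.31 and 1.99% in CS replicates 3 and 4 and STIM KO replicates 3 and 4. STIM KO replicate 1 lay between the other libraries of its set and those of replicates 3 and 4.

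The size of the mitochondrial difference varied with the gene. The NADH dehydrogenase subunit ND1 had 12440, 17543, 2464 and 11238 CPM in replicates 1 and 2, against 64.8, 101, 72.7 and 87.4 CPM in replicates 3 and 4, a log2 fold change of 6.96 ± 0.68 (SE, adjusted p = 8.4e-05). ND2, ND3 and ND6, subunits of the same complex, had log2 fold changes of 6.25, 6.30 and 5.82. The cytochrome oxidase subunit COX1, the most abundant of the 13, had 29279, 32572, 16908 and 43378 CPM in replicates 1 and 2, against 1966, 4165, 3527 and 5289 CPM in replicates 3 and 4 (3.05 ± 0.56). For the cytochrome b gene CYTB the values were 7987, 6334, 4554 and 9956 CPM in replicates 1 and 2, against 2159, 2949, 3533 and 4994 CPM in replicates 3 and 4, and the sets overlapped (1.13 ± 0.43, adjusted p = 0.0497). ND1 and CYTB are adjacent protein-coding genes on this genome, and ND1 had the largest and CYTB the smallest fold change of the 13.

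Of 32 tested transcripts of nuclear respiratory chain genes, 12 were higher (37.5%, against 23.5% of all transcripts) and 4 lower (12.5%, against 27.6%), with a median log2 fold change of 0.71. The class took 1.12, 1.47, 0.938 and 0.948% of the counted reads in replicates 1 and 2, against 1.76, 2.24, 1.36 and 1.53% in replicates 3 and 4. This share was smaller in replicates 1 and 2 within each genotype, although the median was positive. The ATP synthase subunit gene blw had 4913, 5866, 2728 and 2621 CPM in replicates 1 and 2, against 8773, 12748, 7201 and 7989 CPM in replicates 3 and 4 (-1.25 ± 0.39, adjusted p = 0.023). ATPsynB, another subunit of this enzyme, had a log2 fold change of 1.27 ± 0.39 (adjusted p = 0.020), and ATPsynO had -0.33 ± 0.45 (adjusted p = 0.57). Mitochondrial ribosomal proteins, also nuclear encoded, counted 12 higher and 10 lower of 58 tested (20.7% and 17.2%, both below the shares of all transcripts), with a median of 0.10. Their 3 most abundant members were mRpS18A (1.24 ± 0.57, adjusted p = 0.092), mRpL1 (-0.57 ± 0.40, adjusted p = 0.25) and mRpL39 (-1.22 ± 0.29, adjusted p = 0.0057).

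Of 237 annotated transcripts of cytosolic ribosomal proteins, 38 passed the filter, and 30 of these were higher in replicates 1 and 2, 1 was lower and 7 were not called, with a median of 2.53. Both genotypes called 25 of them higher. The list took 4.92, 6.07, 1.59 and 2.82% of the counted reads in replicates 1 and 2, against 0.691, 0.540, 0.273 and 0.515% in replicates 3 and 4, without overlap. RpL41, which encodes a very small ribosomal protein, had 5940, 7036, 2797 and 2946 CPM in replicates 1 and 2, against 169, 111, 32.5 and 94.4 CPM in replicates 3 and 4 (5.52 ± 0.49, adjusted p = 5.6e-05). The stalk protein RpLP2 differed by 4.53 ± 0.60, RpL22 by 4.18 ± 0.70 and RpL4 by 2.48 ± 0.39. The lower member was RpLP0-like (-1.07 ± 0.38, adjusted p = 0.036), named for its likeness to a stalk protein. Among the 17 tested transcripts from genes with a single counted transcript, 15 were higher and 1 was lower, while of all 3523 transcripts of that kind 12.8% were higher and 32.9% were lower.

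Translation factors were mixed, with 16 higher and 5 lower of 32 tested (median 0.76), while 23.5% of all transcripts were higher and 27.6% lower. The 15 tested transcripts from genes with a single counted transcript were 4 higher and 3 lower (median -0.50). Of all transcripts of that kind, 12.8% were higher and 32.9% lower. With the counts of a gene's transcripts summed, 13 genes were higher and 3 lower of 28 tested (median 0.18). Of the cap-binding protein gene eIF4EHP, NM_001202345.2, 1 of 4 counted transcripts, had 16944, 10940, 1977 and 6380 CPM in replicates 1 and 2, against 87.1, 89.6, 185 and 106 CPM in replicates 3 and 4 (6.07 ± 0.76). For eIF1, the initiation factor of start codon choice, the log2 fold change was 2.09 ± 0.33, and for eIF3i, a subunit of the initiation complex, it was -1.60 ± 0.37 (adjusted p = 0.0052). Of 19 proteasome subunits tested, 0 were higher and 6 were lower (31.6%, against 27.6% of all transcripts, median -0.48), and over genes with a single counted transcript the median less that of all transcripts was 0.15. The lower ones included the regulatory subunit Rpn1 (-2.03 ± 0.32). Of the replacement histone gene His3.3B, NM_001272445.2, 1 of 4 counted transcripts, had 25206, 30100, 3857 and 20519 CPM in replicates 1 and 2, against 1782, 2207, 2784 and 2603 CPM in replicates 3 and 4 (2.99 ± 0.65, adjusted p = 0.0037).

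**Figure D2:**
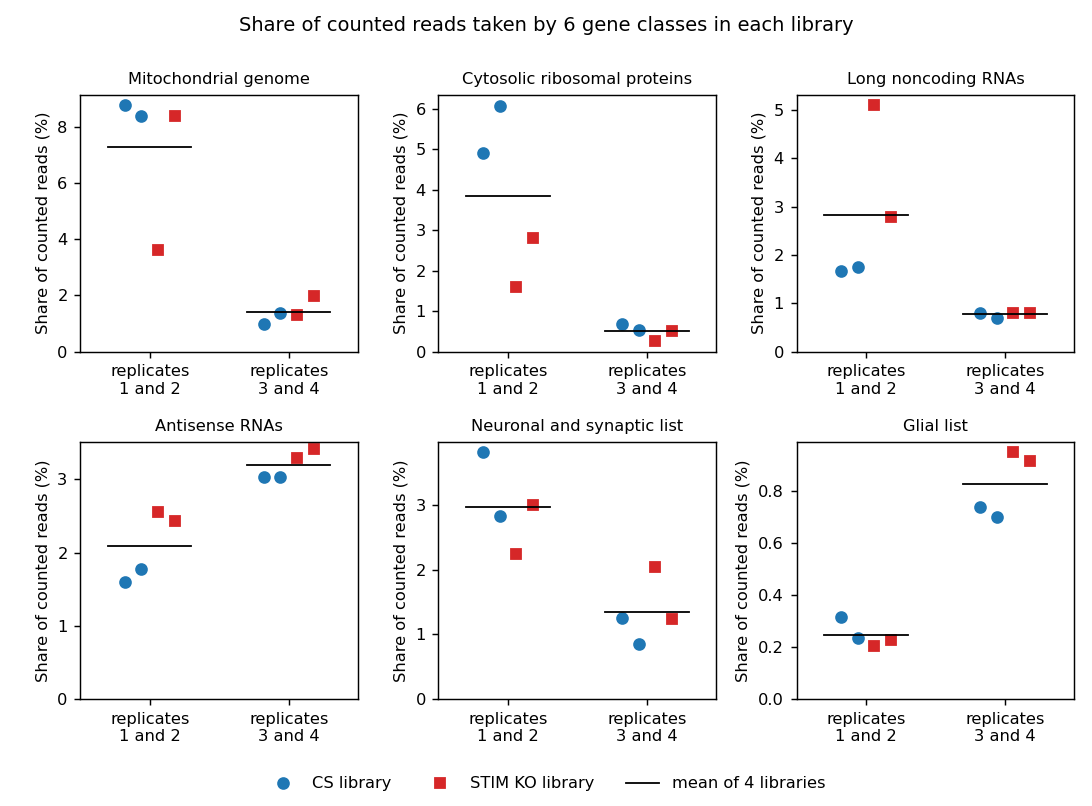
Share of counted reads (percent, y axis, from 0) of 6 gene classes in each library, replicates 1 and 2 at the left and replicates 3 and 4 at the right of each panel, with circles for CS, squares for STIM KO and a bar for the mean of the 4 libraries. Mitochondrial mRNAs reach 8.76% in replicates 1 and 2 and stay at or below 1.99% in replicates 3 and 4, antisense RNAs (1.60 to 2.55% against 3.03 to 3.42%) and the glial list (0.203 to 0.314% against 0.700 to 0.952%) are lower in replicates 1 and 2.

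Noncoding transcripts split by kind. Of 388 tested, 78 were higher (20.1%) and 120 lower (30.9%) in replicates 1 and 2 (median -0.61), shares near the 23.5% and 27.6% of all transcripts. Antisense RNAs made up 273 of them, with 38 higher (13.9%) and 105 lower (38.5%, median -1.0), and 48 of these were called lower within each genotype. Of the antisense RNAs, 255 came from genes with a single counted transcript, with 37 higher and 96 lower (median -0.91). Over all 3523 transcripts of that kind 12.8% were higher and 32.9% lower (median -0.57), so much of this count goes with the kind. Long noncoding RNAs ran the other way, with 36 higher (34.6%) and 13 lower (12.5%) of 104 tested (median 0.55). Their share of counted reads was 1.66, 1.76, 5.10 and 2.79% in replicates 1 and 2, against 0.805, 0.700, 0.793 and 0.799% in replicates 3 and 4. A single transcript, lncRNA:CR44922, held 36201 of 1129439 counted reads in STIM KO replicate 1 and 5364 of 900062 in STIM KO replicate 2, most of the share in the former. The median of all noncoding transcripts less that of all transcripts was -0.39, and 1.38 without a filter on low counts.

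The antisense gene asRNA:CR46262 had 260, 196, 186 and 189 CPM in replicates 1 and 2, against 669, 756, 740 and 767 CPM in replicates 3 and 4 (-1.83 ± 0.28, adjusted p = 0.00051). asRNA:CR46092 and asRNA:CR45326 had a count of 0 in all 4 libraries of replicates 1 and 2, and passed the filter only through replicates 3 and 4. Against the floor of 3 counts over these 4 libraries, asRNA:CR46092 was at least 60.6-fold lower, with 115, 73.8, 54.8 and 43.7 CPM in replicates 3 and 4, and asRNA:CR45326 was at least 37.3-fold lower. The abundant asRNA:CR43875 was higher (2.47 ± 0.47). Each of these counts may include reads of the gene on the other strand.

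Among the other noncoding transcripts, pre-rRNA:CR45845, annotated as a precursor of ribosomal RNA, had 304, 568, 56.7 and 60.6 CPM in replicates 1 and 2, against 3.26, 7.68, 0.485 and 1.0 CPM in replicates 3 and 4 (6.24 ± 0.47, adjusted p = 4e-05). As ribosomal DNA is repeated, its reads could be shared with other copies. lncRNA:CR40469 had 6909, 7007, 5658 and 1803 CPM in replicates 1 and 2, against 227, 60.2, 242 and 617 CPM in replicates 3 and 4 (4.35 ± 0.78). lncRNA:CR43264 differed by 6.54 ± 0.63 and lncRNA:mimi by 6.36 ± 0.65. Of the dosage compensation RNA lncRNA:roX1, NR_123784.1, 1 of 5 counted transcripts, had 31.7, 14.1, 13.9 and 43.3 CPM in replicates 1 and 2, against 4.19, 0.853, 1.94 and 0 CPM in replicates 3 and 4 (3.85 ± 0.83, adjusted p = 0.0034). These values rest on 10, 7, 14 and 30 counts in replicates 1 and 2 and on 9, 2, 4 and 0 in replicates 3 and 4. The most abundant noncoding transcript, lncRNA:CR44922, had 647, 480, 36003 and 7742 CPM in replicates 1 and 2, against 988, 918, 973 and 494 CPM in replicates 3 and 4. Its high values were those of STIM KO replicates 1 and 2, and it did not pass the test (2.08 ± 1.42, adjusted p = 0.24).

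**Figure D3:**
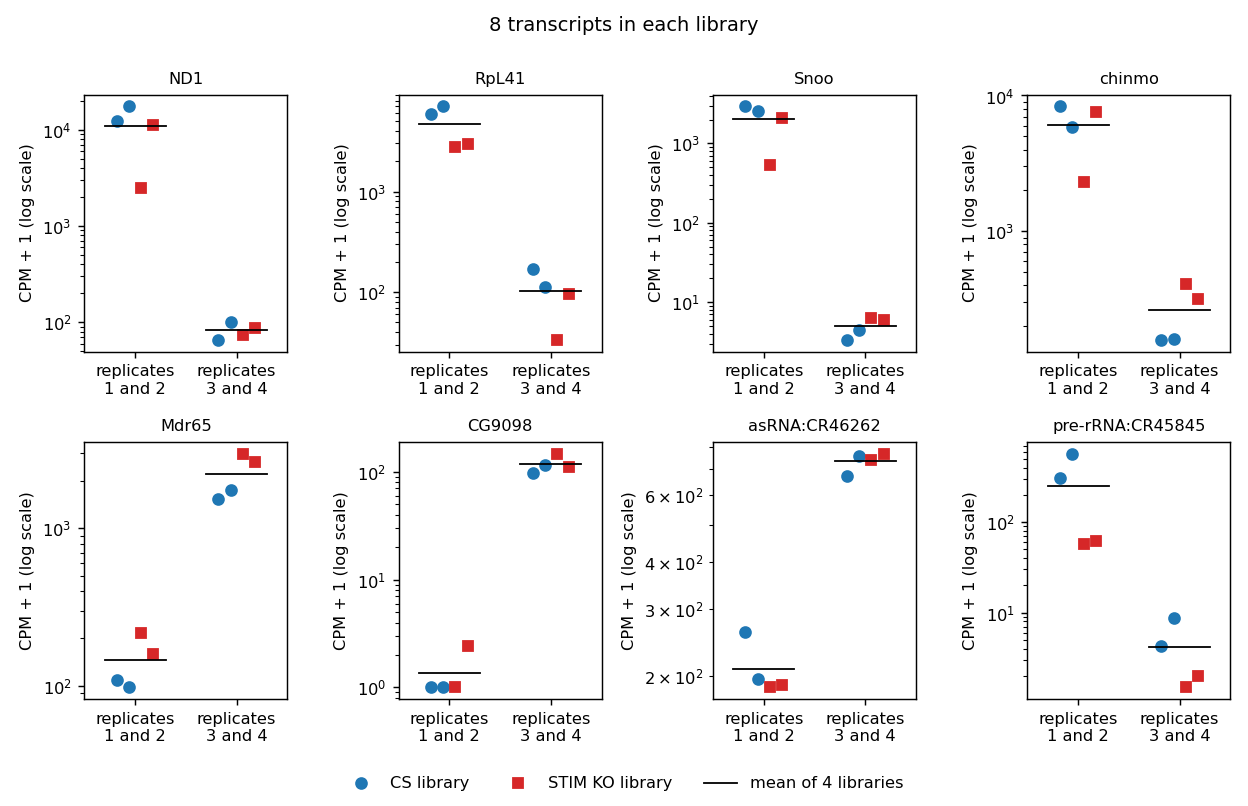
CPM + 1 (y axis, log scale) of 8 transcripts in each library, replicates 1 and 2 left of replicates 3 and 4, with circles for CS, squares for STIM KO and a bar for the mean of 4 libraries. ND1, RpL41, Snoo, chinmo and pre-rRNA:CR45845 are higher, and Mdr65, CG9098 and asRNA:CR46262 are lower, in all 4 libraries of replicates 1 and 2.

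Among neuronal and synaptic genes, calls higher in replicates 1 and 2 outnumbered lower ones. Of 66 tested transcripts of 45 genes, 33 were higher, 11 were lower and 22 were not called (median 1.33), and 28 of the 33 were called higher within each genotype. The list took 3.82, 2.82, 2.24 and 2.99% of the counted reads in replicates 1 and 2, against 1.25, 0.843, 2.04 and 1.23% in replicates 3 and 4. With the counts of a gene's transcripts summed, 24 genes were higher and 4 lower of 45 tested, while 23.3% of all genes were higher and 26.7% were lower. By the same sums, 370 were higher and 112 lower of 784 tested in genes with 4 or more counted transcripts. Ace, the acetylcholinesterase gene, had 4323, 2244, 1326 and 2887 CPM of NM_057605.5, 1 of 3 counted transcripts, in replicates 1 and 2, against 169, 108, 351 and 215 CPM in replicates 3 and 4 (3.73 ± 0.54). The potassium channel gene Sh differed by 3.53 ± 0.67 in its most abundant transcript, and slo, a calcium-activated potassium channel, by 6.04 ± 0.63. Syt4, a synaptotagmin with a single counted transcript, had 4665, 5739, 1524 and 5255 CPM in replicates 1 and 2, against 1616, 1396, 3252 and 2077 CPM in replicates 3 and 4, and did not pass the test (1.07 ± 0.51, adjusted p = 0.10). Lower transcripts included the vesicle protein nSyb (-1.74 ± 0.46, adjusted p = 0.0095) and Gad1 (-5.34 ± 0.75), which makes the inhibitory transmitter GABA. Only 5 tested transcripts of the list came from genes with a single counted transcript, and of these 1 was higher and 2 were lower. The others came from genes with several counted transcripts, and of all tested transcripts of that kind 39.9% were higher and 19.3% lower. Part of the 33 higher calls thus goes with the kind. Without a filter on low counts, the median of the list less that of all transcripts was -0.17, in place of 1.55.

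Neuropeptide and peptide-processing genes counted 10 higher and 5 lower of 32 tested (31.2% and 15.6%, against 23.5% and 27.6% of all transcripts, median 0.48). Their share of counted reads was 0.534, 0.516, 0.759 and 0.746% in replicates 1 and 2, against 0.832, 0.680, 1.35 and 1.05% in replicates 3 and 4. These genes thus took a smaller share in replicates 1 and 2 within each genotype, although the median was positive. sNPF, the short neuropeptide F precursor and the most abundant of them, had 1185, 996, 974 and 2386 CPM in replicates 1 and 2, against 2577, 2642, 6277 and 3472 CPM in replicates 3 and 4 (-1.40 ± 0.41, adjusted p = 0.016). Leucokinin (Lk) had 76.1, 88.7, 1862 and 873 CPM in replicates 1 and 2, against 410, 494, 658 and 1473 CPM in replicates 3 and 4, and did not pass the test (-1.0 ± 0.63, adjusted p = 0.20). Its effect was -2.45 within CS and 0.36 within STIM KO.

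Genes of neural stem cells (neuroblasts) counted 13 higher and 3 lower of 25 tested (median 1.85). The temporal identity genes chinmo and Imp and the growth regulator brat were the most abundant. chinmo had 8332, 5828, 2294 and 7592 CPM of NM_001258910.2 in replicates 1 and 2, against 158, 159, 409 and 316 CPM in replicates 3 and 4 (4.63 ± 0.59), Imp NM_167253.3 differed by 3.51 ± 0.41 and brat NM_206004.2 by 3.09 ± 0.52. All 3 genes have 5 or more counted transcripts. The 9 tested transcripts from genes with 1 counted transcript were 2 higher and 2 lower (median -0.18). In genes with several counted transcripts, 39.9% of all tested transcripts were higher and 19.3% lower. Among the 9, insc, an asymmetric division gene, was higher (3.51 ± 1.12, adjusted p = 0.023, with 1.19 within CS and 6.07 within STIM KO). The neuroblast transcription factor wor was lower (-2.09 ± 0.41, adjusted p = 0.0021). The summed neuroblast markers dpn, wor, ase and mira did not rise with the list. Their sum was 947.7, 868.9, 185 and 477.8 CPM in replicates 1 and 2, against 1137.2, 1105.5, 305.5 and 760.9 in replicates 3 and 4. It was lower in replicates 1 and 2 within CS, and the sets overlapped within STIM KO. Among these markers, mira was higher and wor lower in replicates 1 and 2 without overlap, while dpn and ase overlapped. Cell division genes counted 6 higher and 5 lower of 33 (18.2% and 15.2%, both below the 23.5% and 27.6% of all transcripts).

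The glial list ran against the neuronal one, although the sum of the glial markers did not. Of 20 tested transcripts of 19 genes, 2 were higher (10.0%, against 23.5% of all transcripts), 16 were lower (80.0%, against 27.6%) and 2 were not called (median -3.36), and 10 of the 16 were called lower within each genotype. Its share of counted reads was 0.314, 0.235, 0.203 and 0.228% in replicates 1 and 2, against 0.739, 0.700, 0.952 and 0.917% in replicates 3 and 4. Mdr65, a transporter of the glial blood-brain barrier, had 108, 96.8, 215 and 159 CPM in replicates 1 and 2, against 1538, 1758, 2972 and 2615 CPM in replicates 3 and 4 (-3.95 ± 0.34, adjusted p = 5.2e-05). The astrocyte gene alrm differed by -1.28 ± 0.37, wrapper of the cortex and midline glia by -2.44 ± 0.31, and the transporter gene Eaat2 by -5.74 ± 0.73. In contrast, repo, the transcription factor that defines glia, was higher, with 355, 343, 272 and 241 CPM in replicates 1 and 2, against 162, 119, 152 and 147 CPM in replicates 3 and 4 (1.04 ± 0.28, adjusted p = 0.0098). The other higher member was a transcript of Nrg (4.05 ± 0.51), an adhesion molecule that neurons also use. The summed glial markers repo, nrv2, Eaat1 and Gs2 had 361.3, 348.8, 277.5 and 241 CPM in replicates 1 and 2. In replicates 3 and 4 they had 186.8, 137.8, 177 and 167.2 CPM. This sum was carried by repo, as nrv2, Eaat1 and Gs2 had only 80, 73 and 45 counts over the 8 libraries. Of the 8 glial transcripts from genes with a single counted transcript, 1 was higher and 7 were lower.

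Muscle genes counted 8 higher (61.5%, against 23.5% of all transcripts) and 0 lower (against 27.6%) of 13 tested (median 2.09). Only 2 of these came from genes with a single counted transcript, with 1 higher and 0 lower. In genes with several counted transcripts, 39.9% of all tested transcripts were higher and 19.3% lower. Actn, the cross-linker of actin filaments, had 2672, 1921, 1104 and 4096 CPM of NM_058137.6, 1 of 9 counted transcripts, in replicates 1 and 2, against 47.0, 50.8, 77.6 and 40.7 CPM in replicates 3 and 4 (5.50 ± 0.52). Several of the muscle genes, Actn and Tm1 among them, are not particular to muscle. Act57B overlapped between the sets (1.83 ± 0.63, adjusted p = 0.032). Mlc2 overlapped as well and did not pass the test (0.90 ± 0.41, adjusted p = 0.088). Mhc, the muscle myosin, had a count in 4 of the 8 libraries. Whether the sets differ in the tissue taken with the brains was not tested.

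Differences by transcript length are given over all tested transcripts and then by how many transcripts of the gene were counted. Lengths are those of the canonical transcript of the gene in the Ensembl annotation, not of the counted isoform, which the annotation in use does not resolve. Of 170 tested transcripts under 0.5 kb, 69 were higher and 16 lower (40.6% and 9.41%, against 23.5% and 27.6% of all transcripts, median 1.09). Without overlap between the sets, 59 were higher and 19 lower, against 19.6% and 25.3% of all transcripts. Of 1067 at 4 kb or more, 495 were higher and 204 lower (46.4% and 19.1%, median 1.05). At 0.5 to 1 kb, 202 were higher and 90 lower of 846 (23.9% and 10.6%, median 0.25), the higher share being near that of all transcripts. From 1 to 4 kb lower calls outnumbered higher ones, with 226 higher and 615 lower of 1885 at 1 to 2 kb (median -0.63) and 367 higher and 681 lower of 1842 at 2 to 4 kb (median -0.64).

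Among coding genes with a single counted transcript, 50 of 99 under 0.5 kb were higher and 0 were lower (median 1.52), and the median was lower in longer transcripts, at 0.33 at 0.5 to 1 kb, -0.68 at 1 to 2 kb and -1.15 at 2 to 4 kb. At 4 to 8 kb, 17 were higher and 82 were lower of 176 (median -1.0), and of the 26 transcripts of 8 kb or more 5 were higher and 1 was lower (median 0.39). In genes with several counted transcripts the medians were -0.14 at 1 to 2 kb, 0.41 at 2 to 4 kb, 1.44 at 4 to 8 kb and 2.36 at 8 kb or more, where 99 of 167 were higher and 18 lower. Genes with a single counted transcript took 51.9, 59.6, 64.5 and 56.8% of the counted reads in replicates 1 and 2, against 82.9, 86.5, 78.1 and 83.1% in replicates 3 and 4. Genes with 4 or more took 26.1, 21.0, 20.3 and 22.8% in replicates 1 and 2, against 6.75, 4.91, 9.16 and 6.73% in replicates 3 and 4. In genes with several counted transcripts, 39.9% of those tested were higher and 19.3% were lower.

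The most abundant long transcripts show the range of these counts. scrt, a transcription factor of neurons, had 15368, 8251, 6002 and 16732 CPM in replicates 1 and 2, against 658, 589, 1280 and 608 CPM in replicates 3 and 4 (3.92 ± 0.55). Lrp4, a receptor of the lipoprotein family, had 14560, 19226, 94.5 and 118 CPM in replicates 1 and 2, against 39.1, 53.8, 22.3 and 12.1 CPM in replicates 3 and 4 (5.64 ± 1.35, adjusted p = 0.0059). All 4 of its libraries in replicates 1 and 2 were above those of replicates 3 and 4, and the high values were those of CS (8.50 within CS, 2.62 within STIM KO).

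**Figure D4:**
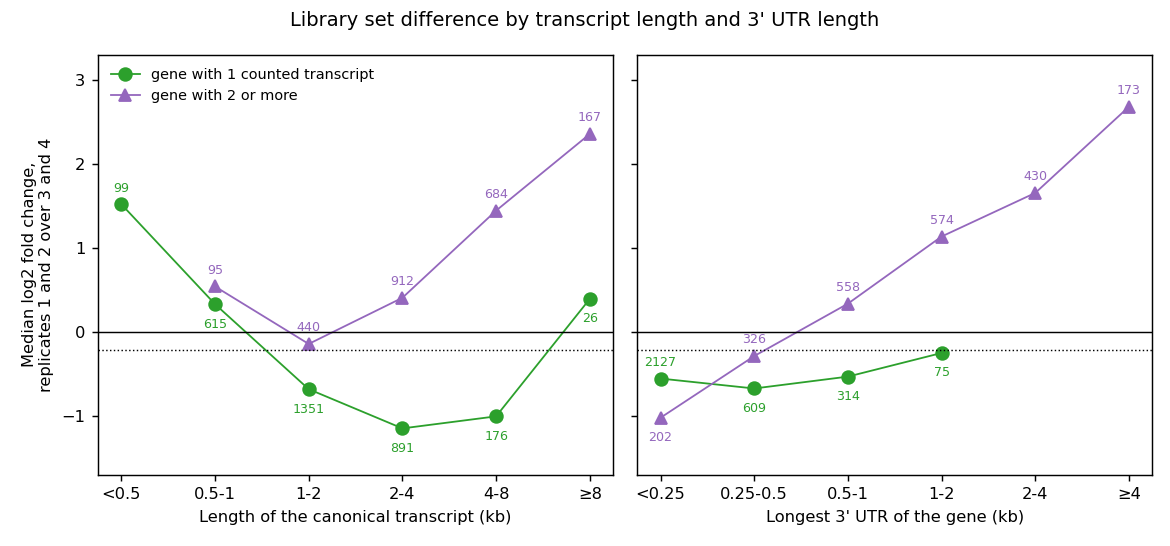
Median log2 fold change (y axis, replicates 1 and 2 over replicates 3 and 4) of tested transcripts by length of the gene's canonical transcript (left panel, kb, coding genes for the circles) and by longest 3′ UTR of the gene (right panel, kb), for genes with 1 counted transcript (circles) and with 2 or more (triangles), with the number of transcripts beside each point and groups under 20 transcripts left out. The dotted line is the median of all transcripts (-0.22), and the circles start at 1.52 for the shortest transcripts while the triangles end at 2.68 for the longest 3′ UTRs.

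The classes by 3′ UTR were added after the length classes had been seen. By the longest annotated 3′ UTR of the gene, medians were -0.59 under 0.25 kb, -0.59 at 0.25 to 0.5 kb, -0.01 at 0.5 to 1 kb, 0.95 at 1 to 2 kb, 1.59 at 2 to 4 kb and 2.68 at 4 kb or more. In the last of these classes 115 of 175 transcripts were higher (65.7%, against 23.5% of all transcripts) and 17 were lower (9.71%, against 27.6%), with 98 and 5 called within each genotype. In genes with a single counted transcript the medians were -0.55, -0.67, -0.53 and -0.25 from under 0.25 kb to 1 to 2 kb, and only 15 such transcripts had a 3′ UTR of 2 kb or more. Of these, 6 of 13 at 2 to 4 kb were higher and 0 lower (median 1.40), and 1 of 2 at 4 kb or more was higher and 0 lower (median 1.86). Chromosome 4, another class added afterwards, had 32 higher and 5 lower of 68 tested (47.1% and 7.35%, against 23.5% and 27.6% of all transcripts, median 1.01). Of the 68, 13 came from genes with a single counted transcript (3 higher, 2 lower).

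Transcripts of the same gene went in opposite directions in 52 of the 291 genes that had more than 1 tested transcript (17.9%). In 32 of the 52 genes both transcripts were free of overlap between the sets, and in 21 both directions were called within each genotype. These genes were singled out by their values and are given as a description. The neuronal RNA-binding protein gene elav had 1249, 776, 1004 and 1090 CPM of NM_001258518.3 in replicates 1 and 2, against 132, 131, 222 and 224 CPM in replicates 3 and 4 (2.59 ± 0.32). Its transcript NM_001014713.4 had 0, 2.02, 18.9 and 7.22 CPM in replicates 1 and 2, against 20.5, 22.6, 45.1 and 31.6 CPM in replicates 3 and 4 (-2.19 ± 0.63, adjusted p = 0.014). In each set NM_001258518.3 was the more abundant of the pair.

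IA-2, a protein of dense-core vesicles, had 13106, 11207, 6622 and 12351 CPM of NM_164401.5 in replicates 1 and 2, against 848, 595, 1866 and 1075 CPM in replicates 3 and 4 (3.38 ± 0.52), and 0, 10.1, 2.98 and 0 CPM of NM_134718.6 in replicates 1 and 2, against 207, 76.0, 305 and 218 CPM in replicates 3 and 4 (-5.90 ± 0.81). eEF1alpha1, the elongation factor, had 456, 337, 490 and 700 CPM of NM_165850.3 in replicates 1 and 2, against 55.4, 49.1, 48.0 and 31.6 CPM in replicates 3 and 4 (3.41 ± 0.36), and 3.17, 0, 3.98 and 0 CPM of NM_058027.5 in replicates 1 and 2, against 54.0, 49.1, 34.9 and 56.8 CPM in replicates 3 and 4 (-4.61 ± 0.74). brp, a protein of the synaptic active zone, had a log2 fold change of 1.50 ± 0.35 for NM_001259299.3 and -2.10 ± 0.70 for NM_001259298.2 (adjusted p = 0.029). In another 55 genes at least 2 transcripts were higher and none lower, and in 23 at least 2 were lower and none higher.

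**Figure D5:**
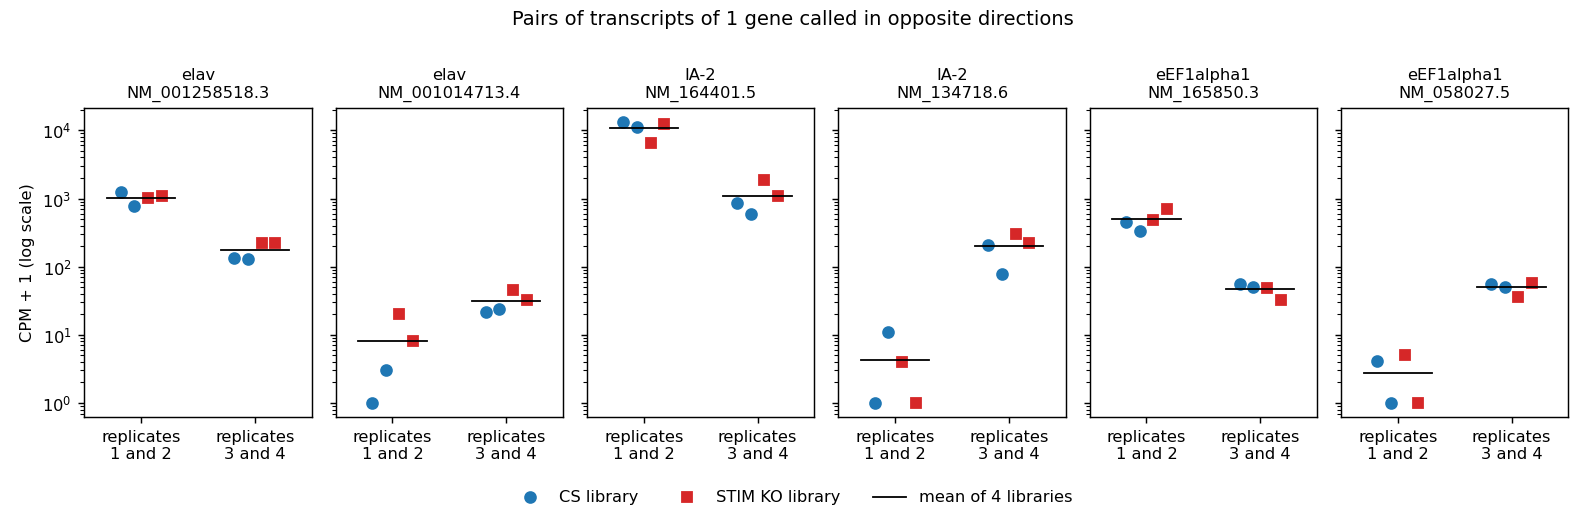
CPM + 1 (y axis, log scale) of 2 transcripts each of elav, IA-2 and eEF1alpha1 in every library, replicates 1 and 2 left of replicates 3 and 4, with circles for CS, squares for STIM KO and a bar for the mean of 4 libraries. For each gene the first transcript is higher and the second lower in replicates 1 and 2, by 2.59 and -2.19 for elav, 3.38 and -5.90 for IA-2 and 3.41 and -4.61 for eEF1alpha1 on the log2 scale.

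The 8 largest differences in each direction, among transcripts of at least 20 CPM without overlap, included ND1 and the antisense RNAs asRNA:CR46092 and asRNA:CR45326 given above, and the others came from genes with several counted transcripts. Snoo, a corepressor of the Ski family, had 2944, 2574, 537 and 2119 CPM of NM_001103646.4 in replicates 1 and 2, against 2.33, 3.41, 5.33 and 5.02 CPM in replicates 3 and 4 (8.88 ± 0.70, adjusted p = 4e-05). CG12728 differed by 7.24 ± 0.52, the epidermal growth factor receptor ligand gene vn by 7.18 ± 0.66 and the transcript NM_001298016.1 of RpL7A by 7.87 ± 0.80. In the other direction, CG9098 had 0, 0, 0 and 1.44 CPM of NM_164672.3, 1 of 3 counted transcripts, in replicates 1 and 2, against 95.5, 114, 146 and 110 CPM in replicates 3 and 4 (-7.96 ± 0.69). ltl NM_001274595.1 (1 of 2 counted transcripts) differed by -7.87 ± 0.69 and NM_138135.2 (1 of 3) of the transient receptor potential channel gene pain by -7.67 ± 0.71. The helicase gene mle (NM_057293.4) and the transporter gene MFS9 (NM_142632.3) had a count of 0 in all 4 libraries of replicates 1 and 2 and were at least 41.8-fold and 49.1-fold lower. In all, 43 tested transcripts had 0 counts throughout replicates 1 and 2, and 0 had 0 counts throughout replicates 3 and 4. The sets differ in depth in the same direction as this last count, and the part of depth in it was not tested. The filter passed the 43 transcripts only through their counts in replicates 3 and 4, so they and their fold bounds are given as a description. CG9098, ltl, pain and the lower transcripts of IA-2 and eEF1alpha1 also passed only through replicates 3 and 4. Snoo, vn and RpL7A NM_001298016.1 passed only through replicates 1 and 2. The fold changes of these and of other transcripts with few counts in either set are likewise a description.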

How the data were processed

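RNA of larval brains was sequenced in 4 CS and 4 STIM KO libraries. The authors aligned reads with HISAT2 and deposited htseq-count tables, in counts per RefSeq transcript, in which a read that fits several transcripts is set aside as ambiguous. A deposited table of a DESeq2 comparison between genotypes holds the study's own fold changes and was not used. The libraries numbered 1 and 2 and those numbered 3 and 4, by sample title, were compared with edgeR 4.0.16 in R 4.3.3 (quasi-likelihood test, trimmed mean of M-values, a filter at a minimum count of 10 and a total of 15, terms for genotype and set, 5 residual degrees of freedom), p-values adjusted across every tested transcript by Benjamini-Hochberg, and a threshold of 0.05. Effects within each genotype and their difference came from a fit of the 4 groups. Adjusted p-values in the text are those of this test. CPM are of the scaled library totals, which rest on 395680 to 2090717 counted reads, and values for a count of 0 were bounded by 3 counts. The fit was tested on simulated data with few changed transcripts, balanced in direction. That simulation cannot show how the scaling behaves where many transcripts differ, as they did here.

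Members, lists and the split itself were chosen with earlier results of these data known, so p-values are not those of a split chosen blind. Named transcripts were the 3 most abundant of each list and of the shortest and longest transcripts, the 8 largest changes in each direction with a mean of at least 20 CPM and no overlap, the 3 largest noncoding changes in each direction, Stim, roX1 and roX2. The text also names some chosen after their values were seen: CYTB, ND2, ND3, ND6, RpLP0-like, nSyb, slo, Gad1, insc, wor, repo, wrapper, Eaat2 and the isoform pairs of elav, IA-2, eEF1alpha1 and brp. Lengths and 3′ UTRs are those of the gene in the Ensembl annotation, and the classes by 3′ UTR, by chromosome and by length within the number of counted transcripts were added after the data were seen. Planned classes by GC content and by runs of A were not made, as no genome sequence was used here. Alternatives were DESeq2 1.42.0, limma 3.58.1 voom, other scalings and filters, counts summed per gene, thinned libraries, single libraries left out and a replicate block. Figures were drawn with matplotlib 3.10.9.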

Additional observations from a re-analysis of the deposited data

Results flagged for a closer look

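In 206 sets of 4 libraries, 16 values lay far from the other 3 of their set by the ratio of the gap to the range, and chance flags about 1 set in 20. Of the 16, STIM KO replicate 1 held 5, CS replicate 4 held 4 and STIM KO replicate 2 held 3. In STIM KO replicate 1, 42.65% of records had no feature and 3.606% of counted reads were mitochondrial, mRpL1 had 478.4 CPM, ltl had 0.9945 CPM and Gad1 had 4.973 CPM. In CS replicate 4 the share of long noncoding RNAs was 0.7%, RpL7A NM_001298016.1 had 0.4267 CPM, mRpL39 had 497.1 CPM and asRNA:CR45326 had 62.72 CPM. In STIM KO replicate 2, sNPF had 2386 CPM, CG9098 had 1.443 CPM and insc had 881.9 CPM. asRNA:CR46262 had 259.9 CPM in CS replicate 1, pain had 2.016 CPM in CS replicate 2, scrt had 1280 CPM in STIM KO replicate 3 and lncRNA:CR44922 had 494.2 CPM in STIM KO replicate 4. For RpL7A, CG9098, ltl, pain and Gad1 the other 3 libraries of the set were at 0, so the value stands apart by 5 counts or fewer.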

How the results depend on the processing

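The count of transcripts called between the sets, 2978, was 1770 in the STIM KO libraries alone and 1378 when only genes with a single counted transcript were used, and 2457 to 3732 with 1 library left out. Library size alone split the calls into 974 higher and 2246 lower. Within CS, 1022 were called over those genes, and 1504 to 3450 with 1 library left out. Within STIM KO these counts were 944, and 883 to 2649. The difference between genotypes had 0 calls, against 168 by DESeq2, 19 by limma voom, 340 with no expression filter, 4 with counts summed per gene, and 0 to 687 with 1 library left out.

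Class medians are given less that of all transcripts. In CS libraries only they were 3.79 for the mitochondrial genome, 3.71 for cytosolic ribosomal proteins, 2.05 for the neuronal list, 1.07 under 0.5 kb and 1.63 at 4 kb or more. In STIM KO libraries only they were -0.17 for noncoding transcripts, 1.61 under 0.5 kb and 0.98 at 4 kb or more. With no expression filter they were 1.46 for ribosomal proteins, 1.38 for noncoding transcripts, -0.17 for the neuronal list, 0.20 at 4 kb or more, 0.21 for 1 counted transcript, -0.15 for 2 to 3, -0.42 for 4 or more, -0.41 for cell division, -0.69 for the ecdysone response and -0.20 for translation factors. Over genes with a single counted transcript they were 3.60 for ribosomal proteins, -0.0084 for noncoding transcripts, 1.64 under 0.5 kb, -0.14 at 4 kb or more and 0.15 for the proteasome. A mean of at least 20 CPM gave 1.71 under 0.5 kb and 1.56 at 4 kb or more, thinned libraries gave 1.68 under 0.5 kb, and leaving out both replicates 1 gave 3.50 for ribosomal proteins. With 1 library left out, ribosomal proteins ranged over 2.72 to 3.48 and transcripts of 4 kb or more over 1.06 to 1.57. The cause of these shifts was not tested.

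Deviations of same-numbered libraries had r = 0.29 in replicates 3 and 4 and r = -0.052 in replicates 1 and 2, so the numbers were not taken to pair the samples, which share only a number. A random replicate block called 3348 transcripts and a block made by summing over genotypes called 2696, with medians of 0.11 for noncoding transcripts and -0.24 for cell division, and 0.38 for Lk. Of the transcripts not called, mRpS18A was -0.16 and lncRNA:CR44922 -0.75 in CS libraries only, ATPsynO was 0.52 and Lk 0.35 in STIM KO libraries only, and ATPsynO was 0.13 over genes with a single counted transcript. Of 66 named transcripts that were called, 0 changed direction in 1566 alternatives and 22 lost the call in at least 1. With 1 library left out, insc lost it without STIM KO replicate 3 or 4, blw without CS replicate 1 or 4 or STIM KO replicate 2 or 4, ATPsynB without CS replicate 2 or 3 or STIM KO replicate 2 or 3, and Act57B, CYTB, RpLP0-like and brp NM_001259298.2 without any of at least 5 of the 8 libraries.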
